A study of Mus musculus with 32 samples.

Results

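The 32 genes described here include those for subunits of voltage-gated sodium channels (Scn) and of voltage-gated calcium channels (Cacna1, Cacna2d and Cacnb). The others encode hyperpolarisation-activated, cyclic nucleotide-gated channels (Hcn) or belong to the Cacng family, which holds calcium channel gamma subunits and auxiliary proteins of AMPA receptors. The 32 are all genes named in the 16 peak lists whose symbol starts with Scn or Hcn and a digit, or with Cacna, Cacnb or Cacng. Cacng2, Cacng3 and Cacng8 were left out, as genes counted with AMPA receptors. The lists name 13143 genes in all. Of 41 symbols of this form in the RefSeq table of GRCm38.p6 (the mm10 assembly), 9 are not analysed here. The series mapped N4-acetylcytidine (ac4C), an acetylated form of cytidine in RNA, in the hippocampus of C57BL6/J mice by acRIP-seq, in which an ac4C antibody pulls down RNA fragments that are sequenced next to an input left without capture. It holds 32 libraries, of which 16 were captured and have a peak list each. A synapse fraction gave 1 list of group L and 1 of group C on each of days 1, 6 and 20, and the tissue homogenate gave 3 lists of group L and 3 of group C on day 6. The peak names inside the files read Learning for L and Control for C. A further set gave 2 lists of a conditional knockout (cKO) and 2 of its control. The labels give neither the deleted gene nor what drives the deletion, and the peak names of cKO and control lists alike begin with AAV. Nothing in the labels ties a library to an animal or a culture of its own, so p-values measure the spread between these libraries, which may be technical. In such bulk samples, fewer cells of a type and less RNA per cell cannot be told apart.

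Sodium channels carry the rising phase of the action potential, through a large pore-forming alpha subunit encoded by genes such as Scn1a and Scn8a, with small beta subunits, such as Scn2b, that tune gating and adhesion. A voltage-gated calcium channel has a pore-forming alpha-1 subunit (Cacna1a to Cacna1i), an alpha-2/delta subunit outside the membrane (Cacna2d) and a cytoplasmic beta subunit (Cacnb), both of which promote its surface expression. Calcium entering through these channels triggers transmitter release at terminals and signals to the nucleus from dendrites and the soma. HCN channels open on hyperpolarisation and set resting potential and dendritic integration in hippocampal pyramidal cells.

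The lists held 5586 to 7293 peaks in the synapse fraction, 15182 to 16971 in the homogenate, 1887 and 422 in the cKO and 4446 and 5132 in the control. They hold no read counts, so depth is unknown and a missing peak may lie below the authors' threshold. The last row of the day 6 synapse L list is at position 118984776 of chromosome 7, and 7 members, among them Cacna1a, Cacna2d2, Hcn4, Scn2b, Scn3b and Scn4b, lie beyond it. The second cKO list has a smallest peak length of 500 bp, against 150 bp in the first. Of 7 neuron markers, 2 had a peak in each cKO list and 6 in each control list, 4 to 7 had one in synapse lists and 5 to 7 in homogenate lists. Of 5 astrocyte markers, 0 or 1 had a peak in cKO lists and 4 in each control list, with 2 to 5 in synapse and 3 to 5 in homogenate lists. Of 5 microglia markers, 1 or 2 had a peak in cKO lists and likewise in control lists, with 2 to 4 in synapse and 3 to 5 in homogenate lists. Of 7 markers of hippocampal excitatory neurons, 1 had a peak in each cKO list and 1 or 2 in control lists, with 2 or 3 in synapse and 3 to 6 in homogenate lists. Of 4 endothelial markers, none had a peak in synapse, cKO or control lists and 1 to 3 had one in homogenate lists. The part of these differences in the results below was not tested.

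Recurrent peaks of several members lay on an annotated transcript start, so the starts are shown first. The RefSeq table of GRCm38.p6 gave 30 starts for 20 members and no entry for the other 12. A peak named for the gene overlapped the first 50 transcribed bases at 23 of the 30 starts in at least 1 list. The 8 starts under a peak in at least 8 lists are printed as their first 30 transcribed bases, 5′ to 3′, with cytidine, the base that ac4C modifies, in capitals, and each is followed by any other start of the same gene that met peaks in at most 1 list.
Scn8a, later start, chr15:100936271-100936300, plus strand: agCCgaCCtgtCCCggaCtCagCataaCta
Scn8a, earlier start, chr15:100870645-100870674, plus strand: ggCgCgCatCCagtCCggagCgCCgggaCg
Cacna1e, chr1:154725891-154725920, minus strand: gatggCtCgCttCggggaggCggtggtCgt
Cacnb4, upstream start, chr2:52676114-52676143, minus strand: tCCtCCtCCCCtCCtCCtagCCCtgCtCCg
Cacnb4, middle start, chr2:52675830-52675859, minus strand: gCtgCggtCCtCaCtggCttCtttgtggCC
Cacnb4, downstream start, chr2:52558582-52558611, minus strand: agaggCCgCtttCCtagCtCtgtCaCCagt
Cacna2d3, chr14:29721835-29721864, minus strand: gCgCggCggagCaggCagCCCagCgCgCtC
Cacnb2, upstream start, chr2:14604306-14604335, plus strand: gCCtgCgCCaCCgCCtagtCtaggCtttgC
Cacnb2, downstream start, chr2:14824092-14824121, plus strand: agtaCgttagaaagtCatgaagtCataCtg
Cacnb1, upstream start, chr11:98022598-98022627, minus strand: gaCggCggCagCggCCgCagagagCaCagC
Cacnb1, downstream start, chr11:98018343-98018372, minus strand: gagCtCCtgggggaaCCggCtgtgtgggCC
Hcn2, chr10:79716634-79716663, plus strand: CCgCtCCgCtCCgCaCtgCCCggCgCCgCC

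The later start of Scn8a, which encodes the sodium channel alpha subunit concentrated at axon initial segments and nodes of Ranvier, met a peak in 12 lists, 4 of the synapse, 6 of the homogenate and 2 of the control. Its earlier start met one in 1 homogenate list. The 300-base window of the later Scn8a start, chr15:100936021-100936320 on the plus strand, is printed with its 50 transcribed bases in capitals because it carried the most recurrent start of the set.
Scn8a window: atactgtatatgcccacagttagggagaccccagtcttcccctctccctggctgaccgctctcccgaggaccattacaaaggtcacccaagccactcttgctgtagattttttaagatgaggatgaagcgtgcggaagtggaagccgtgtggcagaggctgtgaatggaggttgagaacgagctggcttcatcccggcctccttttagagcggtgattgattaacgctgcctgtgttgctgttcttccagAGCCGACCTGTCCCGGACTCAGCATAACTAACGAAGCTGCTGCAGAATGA
The start of Cacna1e, the pore of R-type calcium channels, met a peak in 11 lists, 4 of the synapse, 5 of the homogenate and 2 of the control. This start is not at the 5′ end of the annotated span, since all peaks named Cacna1e lay 158 to 391 kb along its 494 kb. Among the beta subunits, the middle and upstream starts of Cacnb4 met peaks in 10 and 8 lists and its downstream start in 1 cKO list. Cacnb2 met peaks in 9 lists at its upstream start and in 0 at its downstream start, and Cacnb1 in 8 and 0. The start of Cacna2d3 met peaks in 9 lists and that of Hcn2 in 8, 5 of the synapse and 3 of the homogenate. No cKO list had a peak on any of these starts apart from the downstream one of Cacnb4. Where a gene has several starts, the recurrent peaks thus lay on some of them and rarely on the others, and the places were chosen for print because of these counts.

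The motif CNN repeated 4 times in a row, a spacing of cytidines reported for ac4C, was searched on both strands of the first 50 transcribed bases. On the transcribed strand it was found at 10 of the 23 member starts under a peak (43.5%), 1 of the 7 under none (14.3%) and 21.1% of all 32851 starts in the table. On the other strand, where a match can overlap one on the first, it was found at 52.2%, 14.3% and 29% of the same starts. The median share of cytidine in these bases was 30% at starts under a peak, 28% at those under none and 26% at all starts. Of peaks named for the 20 members with an entry, 19.4% met a start in synapse lists (33 of 170), 25.2% in homogenate lists (59 of 234) and 24.4% in control lists (10 of 41). The same share over all genes with an entry was 12.9%, 28.9% and 17.9%. In the cKO lists it was 25% of member peaks (1 of 4) and 36.4% of all peaks. List by list, the members' share was above that of all peaks in 5 of 6 synapse lists and both control lists, and below it in 5 of 6 homogenate lists, with synapse L day 6 and the third homogenate C list the other way.

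Channel genes were found in most lists more often than genes in general. Members with at least 1 peak numbered 18, 19 and 16 in the synapse L lists of days 1, 6 and 20 and 18, 18 and 16 in the synapse C lists, or 50% to 59.4% of 32, against 23.8% to 28.8% of all genes named in the lists. They numbered 28, 26 and 25 in the homogenate L lists and 26, 26 and 30 in the homogenate C lists, or 78.1% to 93.8%, against 61.7% to 69.8% of all genes. They numbered 7 and 1 in the cKO lists (21.9% and 3.13%), against 12.5% and 3.15% of all genes, and 17 and 18 in the control lists (53.1% and 56.3%), against 22.2% and 24.1%. The members' share was above that of all genes in every list but the second cKO list. A member had peaks in a median of 11 of the 16 lists, against 6 over all genes, and 14 of 32 members (43.8%) had one in at least 12 lists, against 16.1% of all genes. Of the members, 8 had a peak in all 6 synapse lists (25%, against 8.54% of all genes). The members' median annotated span was 103 kb, against 23.7 kb over all genes, and the part of gene length in these shares was not tested.

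**Figure D1:**
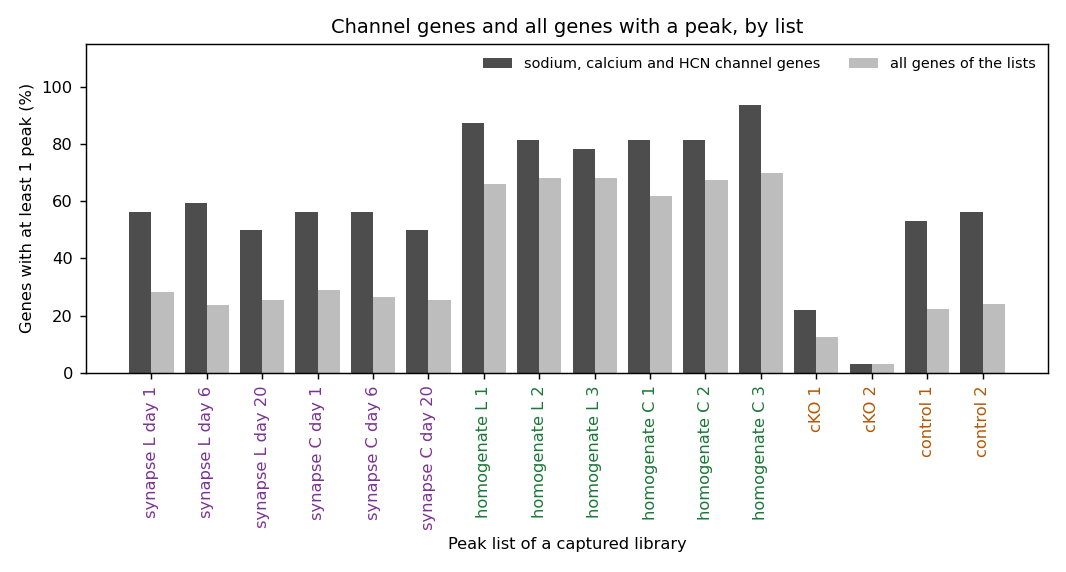
Share of genes with at least 1 peak (vertical axis, percent) in each of the 16 lists, dark bars for the 32 channel genes and light bars for all 13143 genes of the lists. The dark bar is the taller one in every list but the second cKO list, where 1 member had a peak.

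Among the sodium channel alpha subunits, peaks concentrated on Scn8a. It had 3, 3 and 3 peaks in the synapse L lists of days 1, 6 and 20 and 3, 5 and 4 in the C lists of those days. It had 4, 4 and 4 peaks in the homogenate L lists and 3, 4 and 3 in the homogenate C lists. It had 1 and 0 in the cKO and 3 and 4 in the control. Scn8a and the calcium channel gene Cacna1g were the members found in the most lists, 15 of 16, and both were missing from the second cKO list alone. Scn3a, an alpha subunit best known from the developing brain, had 2, 5 and 0 peaks in the synapse L lists and none in the synapse C lists, 0, 0 and 2 in the homogenate L lists and 0, 0 and 1 in the homogenate C lists, and none in the cKO against 2 in each control list. Scn1a, an alpha subunit prominent in inhibitory neurons, had 1 peak in 1 homogenate L list. Of the alpha subunits, Scn8a alone was found in more than 6 lists.

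The sodium channel beta subunits Scn2b, Scn3b and Scn4b each had a peak in all 6 homogenate lists, with 1 to 3 peaks a list. In the synapse lists Scn3b had a peak in 5, and Scn2b and Scn4b in 1 each.

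The calcium channel alpha-1 subunits held 222 of the 621 member peaks. Cacna1e had 1, 2 and 1 peaks in the synapse L lists and 2, 1 and 2 in the synapse C lists, and a peak in every homogenate and control list. Cacna1g, a T-type (low-threshold) pore, had 4, 4 and 1 peaks in the synapse L lists, 3, 6 and 1 in the synapse C lists and 2 to 4 in the homogenate lists. Cacna1a, the P/Q-type pore of most fast central synapses, had a peak in 5 synapse lists and all 6 homogenate lists, and its missing synapse list is the one that ends before its locus. Cacna1b, the N-type pore that shares presynaptic terminals with it, had 1 to 5 peaks in the synapse lists (median 3.5) and 0 to 7 in the homogenate lists (median 2.5). Cacna1c, the main L-type pore of the brain, had a peak in 5 synapse and 6 homogenate lists, and Cacna1i, another T-type pore, in 5 of each. The remaining T-type pore, Cacna1h, was found in 7 lists, 2 of them the cKO lists.

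Of the alpha-2/delta subunits, Cacna2d3 was found in 13 lists and Cacna2d1, a binding site of gabapentin, in 7. Cacna2d2 and Cacna2d4 were found in the homogenate lists alone. Of the beta subunits, Cacnb1 was found in 13 lists, Cacnb4 in 12, Cacnb3 in 12 and Cacnb2 in 9. Of the Cacng genes, Cacng7 was found in 13 lists, Cacng5 in 12, Cacng1, the gamma subunit of skeletal muscle calcium channels, in 6 and Cacng4 in 4. Of the HCN genes, Hcn2 was found in 14 lists, Hcn4 in 6 and Hcn3 in 5.

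**Figure D2:**
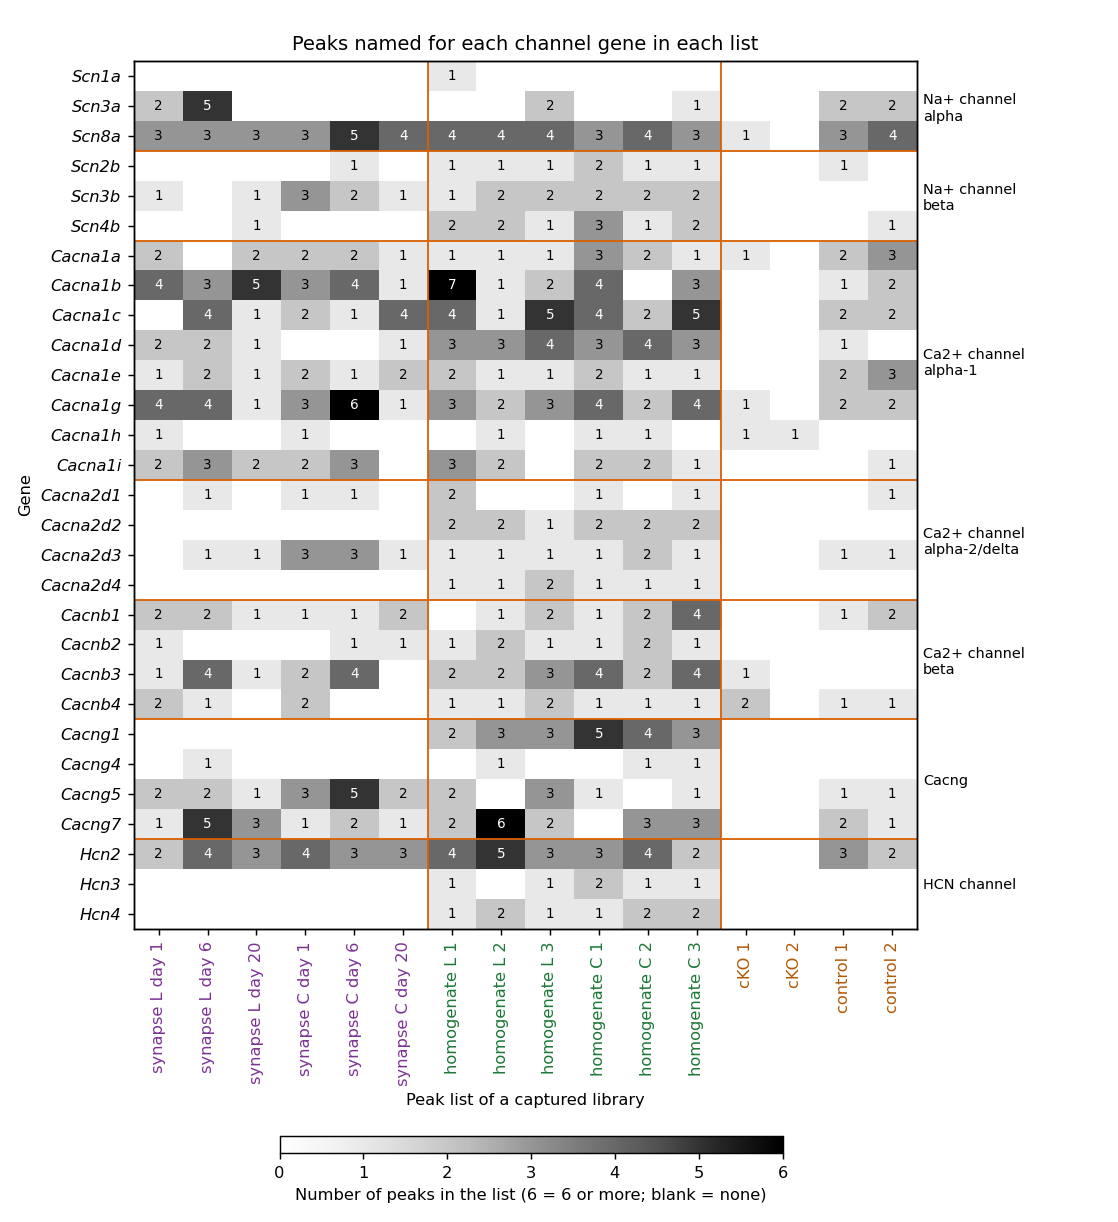
Number of peaks named for each channel gene reported by name (rows, by subunit family) in each of the 16 lists (columns, grouped as synapse, homogenate and cKO set), with darker cells for more peaks and blank cells for none. Scn8a, Cacna1g and Hcn2 fill nearly every column, the columns of the cKO are nearly blank, and Cacna2d2, Cacna2d4, Cacng1, Hcn3 and Hcn4 have entries in homogenate columns alone.

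Peaks recurred at the same places. Merged over lists at 1 base of overlap, the 621 member peaks fell into 170 regions, of which 74 came from 1 list and 14 from at least 10 lists, a minimum chosen after the counts were seen. The region of Cacna1a at chr8:84414255-84416101 was found in 14 lists, 5 of the synapse, 6 of the homogenate, 1 cKO and both control lists. The authors' fold of its peaks, which ranks peaks within 1 list, lay at a median percentile of 86.0 in those synapse lists, 93.9 in the homogenate lists, 52.2 in the cKO list and 82.8 in the control lists. The region of Cacna1e at chr1:154725516-154726842 was found in 14 lists too, in all 6 synapse, all 6 homogenate and both control lists, at median percentiles of 74.0, 85.9 and 91.6. Both regions thus held peaks in the upper part of most lists by fold.

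Scn8a had 3 regions in at least 12 lists. The one on its later start, chr15:100935664-100937145, lay at a median percentile of 24 in 4 synapse lists, 86.0 in 6 homogenate lists and 39.4 in 2 control lists. The others, chr15:100972681-100973147 in 13 lists and chr15:100974276-100974829 in 12, lay further into the gene. The second of these was the only Scn8a region with a cKO peak, of fold 6.27 in the first cKO list. Scn8a peaks were therefore spread over the middle of the gene and not only at a start.

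For the other families, the region in the most lists that lies in the named gene was at chr10:79716578-79717845 for Hcn2 (11 lists), chr14:29721471-29722835 for Cacna2d3 (10 lists), chr2:52675220-52676611 for Cacnb4 and chr11:98021694-98023028 for Cacnb1 (10 lists each). All 4 covered an annotated start, and that of Cacnb1 also overlapped Rpl19, a ribosomal protein gene beside it, so its peaks cannot be assigned between both genes. The Cacnb1 region was found in all 6 synapse lists and 2 homogenate lists.

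Names and places did not always match. Of the 621 member peaks, 117 lay outside the annotated span of the gene they were named for, in 13 members. All 20 peaks named Cacng1 lay in its neighbours, 10 in Cacng4 and 10 in Helz, so none was in Cacng1 itself. Of 45 named Hcn2, 14 lay in Bsg, in 12 lists, and of 24 named Cacng5, 14 lay in Prkca, in 11 lists. Of 9 named Hcn4, 7 lay in Neo1. For these genes the name in a list is not evidence of a peak in the gene, and results are given by place as well below.

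The reverse also held, almost only in the homogenate. Peaks inside the span of a member but named for another gene, whose own span they did not overlap, numbered 6 in the synapse lists, against 199 in the homogenate lists, and 0 in the cKO and control lists. A further 21 peaks, 1 of them in the cKO, overlapped the spans of both genes. As a share of peaks in member spans, leaving those out, the mismatch was 3.11% in the synapse lists (6 of 193) and 43.5% in the homogenate lists (199 of 457). Over all genes the same share was 16.8% in the synapse lists and 22.6% in the homogenate lists. In the cKO lists it was 0 of 7 for members and 11.7% over all genes, and in the control lists 0 of 52 and 10.1%. Several sets of these peaks lay near the 3′ end of the channel gene. In Scn8a, 21 peaks named Fignl2 lay 132 to 175 kb along a span of 176 kb, in all 6 homogenate lists, while peaks named Scn8a reached no further than 114 kb in any list. In Cacna1c, 24 peaks named Ankrd26 lay in the last stretch, from 543 to 610 kb of 610 kb, in all 6 homogenate lists, and in Cacna1d 19 peaks named Chdh lay from 368 to 450 kb of 451 kb, again in all 6 homogenate lists. Neither stretch had a peak under any name in the synapse, cKO or control lists. Further cases were Cacna1a with 31 peaks named Ier2, Cacna1h with 22 named Tpsg1, Cacna1g with 15 named Abcc3 and Cacna1b with 10 named Pax8, each in 5 or 6 homogenate lists and 0 synapse lists.

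Cacng5 ran the other way. All 6 synapse lists had a peak 37.6 to 38.9 kb along its span of 40.5 kb, and no homogenate list had one there. By place, Cacng5 had a peak in 6 synapse lists and 1 homogenate list (Fisher's exact test, Benjamini-Hochberg adjusted p = 0.0663), which does not pass at 0.05. The absence of synapse peaks thus held for single stretches such as those of Cacna1c and Cacna1d and was not general. For members with an annotated start, and so a known strand, peaks nearer the 3′ end than the 5′ end were counted. Under any name, these were 66 of 142 synapse peaks inside the spans (46.5%) and 198 of 318 homogenate peaks (62.3%). Among peaks named for the gene itself, they were 60 of 136 in the synapse and 74 of 192 in the homogenate lists. The homogenate excess was thus in peaks named for other genes. The share over all genes is not given here.

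**Figure D3:**
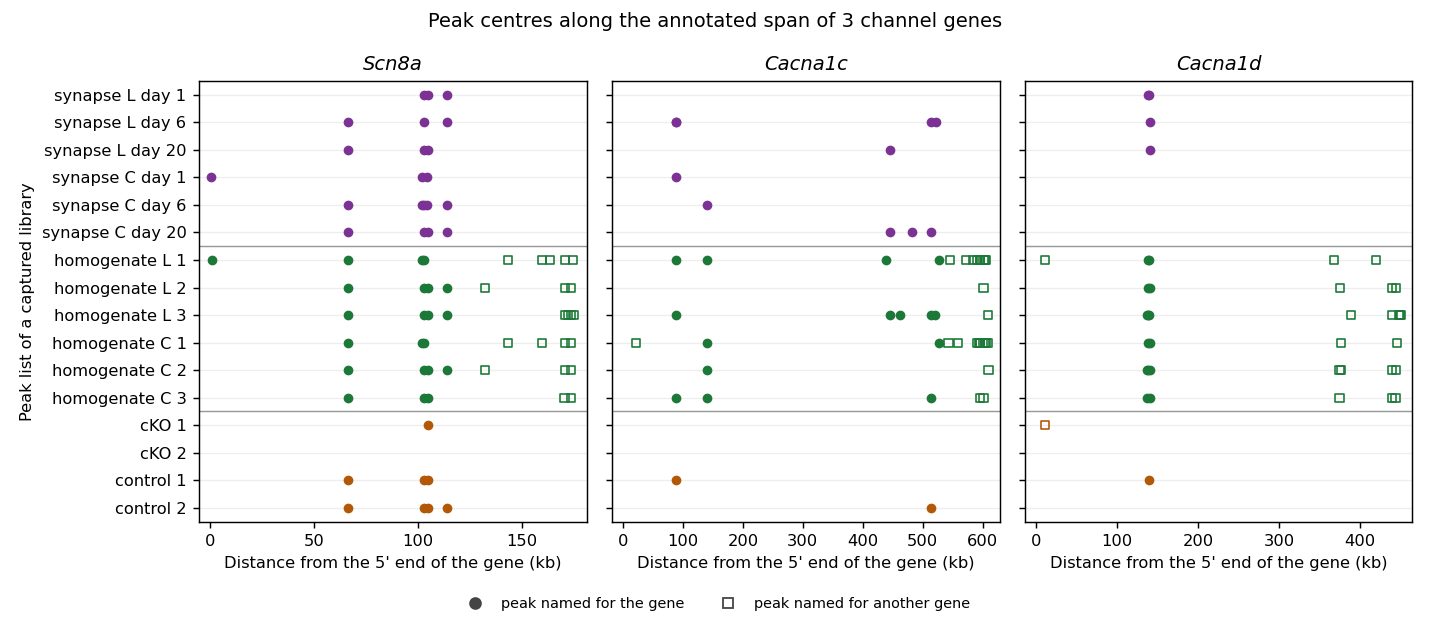
Centre of every peak inside the annotated span of Scn8a, Cacna1c and Cacna1d, in kb from the 5′ end of the gene (horizontal axis), by list (rows), filled circles for peaks named for the gene and open squares for peaks named for another gene. The open squares at the right of each panel, 21 in Scn8a, 24 in Cacna1c and 19 in Cacna1d, are in homogenate rows alone.

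Synapse and homogenate lists were compared gene by gene to ask where the ac4C peaks of channel transcripts differ between the fractions. Of the 32 members, 4 passed the test with fewer synapse than homogenate lists: Cacna2d2, Cacna2d4, Cacng1 and Hcn4, the HCN subunit known as the cardiac pacemaker, each with a peak in 0 of 6 synapse and 6 of 6 homogenate lists (Fisher's exact test on the number of lists, two-sided, p = 0.00216, Benjamini-Hochberg adjusted p = 0.0151 over 13115 genes). That is 12.5% of members, against 14.3% of all genes tested, so the share of members is close to the background. No member was called with more synapse than homogenate lists, against 0.0457% of all genes, or 6 genes. At an unadjusted p under 0.05 the counts were 7 members with fewer synapse lists (against 23.5% of all genes) and 0 with more (against 0.145%). Hcn3 was found in 0 synapse and 5 homogenate lists, and Scn2b and Scn4b in 1 synapse and 6 homogenate lists each, all with an adjusted p of 0.0640. Cacna2d2, Hcn4, Scn2b and Scn4b lie beyond the end of the day 6 synapse L list, so a missing peak in that list is not evidence of absence. Without that list the same 4 members were called (Fisher's exact test, adjusted p = 0.0149).

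By place the set of called genes changed. When a gene was counted by any peak inside its span, whatever its name, Cacna2d4 and Hcn3 were called with 0 synapse and 6 homogenate lists each (Fisher's exact test, adjusted p = 0.0169, 2 of 31 members, against 12.8% of all genes), and 0 members in the other direction (against 0.0159%). Cacna2d2 then had a peak in 3 synapse lists, under the name Tmem115 (exact test, adjusted p = 0.418), Hcn4 in 0 synapse and 2 homogenate lists (adjusted p = 0.778), and Cacng1 in none. The 6 homogenate peaks of Cacna2d4 at chr6:119329672-119330863 also overlapped Lrtm2, a gene inside its span. Cacna2d4 was the 1 member called both by name and by place.

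The homogenate lists are longer, and with the 5586 top-ranked peaks of every list 0 members were called in either direction, while 66 of all genes were called with more synapse lists and 461 with fewer. The number of peaks of a gene per 1000 peaks of its list was compared as well. Scn8a had 0.550 ± 0.158 peaks per 1000 in synapse lists and 0.224 ± 0.0348 in homogenate lists (SD, n = 6 each; exact permutation test, adjusted p = 0.0122). Hcn2 had 0.494 ± 0.117 in synapse lists and 0.213 ± 0.0614 in homogenate lists (exact permutation test, adjusted p = 0.0237). Cacng5, an auxiliary subunit that also binds AMPA receptors, had 0.386 ± 0.213 in synapse lists and 0.0727 ± 0.0755 in homogenate lists (exact permutation test, adjusted p = 0.0237), although most of its peaks lay in Prkca. Cacna1e had 0.235 ± 0.0914 in synapse lists and 0.0812 ± 0.0306 in homogenate lists (exact permutation test, adjusted p = 0.0122). These 4 of 32 members compare with 4.67% of all genes called in that direction. In the other direction it called 4 members, Cacna2d2, Cacna2d4, Cacng1 and Hcn4, and 1882 of 13115 genes. Without scaling to list length, Scn8a had 21 peaks in synapse and 22 in homogenate lists, Hcn2 19 and 21, Cacna1e 9 and 8, and Cacng5 15 and 7. These counts are by name and leave out 21 homogenate peaks inside Scn8a named Fignl2 and 7 inside Hcn2 named Polrmt. The C and L lists share a day or number, and with both as 1 unit, 3 units against 3, the smallest p is 0.1 and no gene passed. With the day 6 synapse lists alone, 2 against 6, no gene passed either (exact test, smallest p = 0.0357, smallest adjusted p = 0.208).

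**Figure D4:**
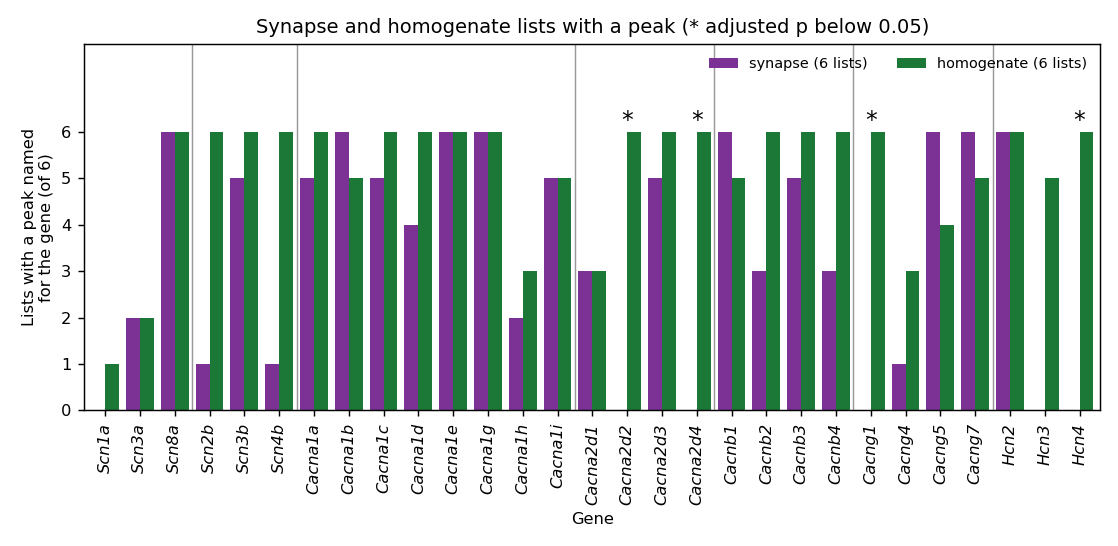
Number of synapse lists (left bar of each gene) and homogenate lists (right bar), of 6 each, with a peak named for the gene (vertical axis), for the channel genes reported by name, in family order. Asterisks mark the 4 genes with an adjusted p below 0.05, which have 6 homogenate lists and no synapse list.

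The lists of the cKO and its control were compared to ask which channel transcripts keep or lose a peak with the deletion. Of the 22 members with a peak in the set, 10 were found in the 2 control lists but not in the cKO lists (45.5%), against 33.8% of the 4188 genes tested. They include the alpha-1 subunits Cacna1b, Cacna1c and Cacna1e, Cacna2d3, Cacnb1, Cacng5, Cacng7, Hcn2 and Scn3a. Cacna1h alone had the opposite pattern, 1 of 22 members, against 1.00% of all genes. With the 422 top-ranked peaks of every list both counts were 0 of 5 members, and over all genes 165 were in both cKO lists alone and 84 in both control lists alone, so the direction over all genes turned. At a fold of at least 5 the members were 0 in both cKO lists alone and 3 in both control lists alone. With 2 lists against 2 an exact permutation test cannot give a p under 0.333, so these counts have no test. The cKO lists are shorter than the control lists, and list length and genotype cannot be told apart.

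Cacna1h, a T-type pore, had 1 peak in each cKO list and 0 in each control list. The first lay at chr17:25432947-25433096 with a fold of 5.37 and the second at chr17:25432889-25433437 with a fold of 4.66, at the 51.3 and 41.7 percentile of their lists. They belong to the only region of peaks named Cacna1h, chr17:25432575-25433670, which also held a peak in 2 synapse and 3 homogenate lists. The gene also held 22 peaks named Tpsg1, in 5 homogenate lists. With only peaks of at least 5-fold, Cacna1h lost the pattern, since its second cKO peak is below that fold.

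Among the 10 genes with control peaks alone, Hcn2 had 0 and 0 peaks in the cKO and 3 and 2 in the control, and Cacna1e 0 and 0 against 2 and 3. Cacnb1 had 0 and 0 against 1 and 2, and its control peak at chr11:98022378-98022613 had the highest fold of any member peak in the set, 13.1. That peak, in the first control list, lay in the region that also overlapped Rpl19 and cannot be assigned between both genes. Cacna1e had a peak at chr1:154726498-154726689 with a fold of 11.1, also in the first control list. By place, 8 of the 10 kept the pattern (8 of 20 members, against 34.5% of all genes) and Cacng5 and Cacng7 did not, and Cacna1h kept its own (1 of 20, against 0.861%). Members with a peak in the first cKO list and in both control lists included Cacna1a, Cacna1g, Cacnb4 and Scn8a. The cKO peaks of Cacna1a and Scn8a lay in regions that also held control peaks. Those of Cacna1g and Cacnb4 lay in regions without a control peak, so for these genes the name recurred and the place did not.

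The pairs of the set, taken by the numbers in the labels, differed. In pair 1, 2 of 19 members had a peak in the cKO list alone (Cacna1h and Cacnb3, against 17.3% of all genes), 12 in the control list alone (against 53.4%) and 5 in both (against 29.4%). In pair 2, Cacna1h alone was in the cKO list (1 of 19, against 2.31%), 18 were in the control list alone (against 87.2%) and 0 were in both (against 10.5%). At the level of places, 3 of 28 member peaks of the first control list were overlapped by a peak of its cKO list, or 10.7% (95% Wilson interval 3.71% to 27.2%), against 13.2% of all its peaks. For pair 2 it was 0 of 32 (upper bound 10.7%), against 5.40% of all peaks. In both pairs the members' interval includes the share of all peaks. Intervals cover counting error only.

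The L and C lists address whether training changes the ac4C peaks of channel transcripts. In the homogenate no member was found in the 3 L lists without being in a C list, against 0.271% of 12908 genes, and none had the reverse, against 0.209%. With 3 lists against 3, an exact permutation test cannot go below 0.1. Within the numbered pairs, the members in the L list alone numbered 4, 1 and 0 and those in the C list alone 2, 1 and 5. The L list alone held, among others, Cacng7 and Scn1a in pair 1 and Cacna1b in pair 2. The C list alone held, among others, Cacna1h and Cacnb1 in pair 1, Hcn3 in pair 2 and Cacna1i, Cacna2d1 and Cacng4 in pair 3. These pair counts are by name. Counted by any peak inside the span, Cacng7, Cacna1b, Cacna1h, Cacnb1, Hcn3 and Cacng4 were in all 3 L and all 3 C lists. For these genes the difference lay in the name alone, while Scn1a, Cacna1i and Cacna2d1 were still missing from some lists. The share of all genes was 17.2%, 10.6% and 18.3% for L alone and 11.2%, 9.83% and 20.5% for C alone.

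In the synapse fraction, each day has 1 list of each group, so a single day has no test, and an exact permutation within the 3 days cannot give a p under 0.25. On day 1, Cacna1d, Cacnb2 and Scn3a were in the L list alone (3 of 21 members, against 17.9% of all genes) and Cacna1c, Cacna2d1 and Cacna2d3 in the C list alone (3, against 19.5%). On day 6, members that included Cacna1d, Cacnb4, Cacng4 and Scn3a were in the L list alone (5 of 23, against 20.0%) and Cacna1a, Cacnb2, Scn2b and Scn3b in the C list alone (4, against 28.4%). Of these C genes, Cacnb2 is the 1 that lies in the range that the day 6 L list reaches, where the counts were 5 and 1 of 20 (against 23.0% and 17.5%). On day 20, Cacna1i, Cacnb3 and Scn4b were in the L list alone (3 of 19, against 22.6%) and members that included Cacnb2 in the C list alone (3, against 23.2%). No member had the same pattern on all 3 days by name (against 0.538% for L and 0.826% for C of 5572 genes).

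Cacna1d, an L-type pore that opens at lower voltages than Cacna1c, had 2, 2 and 1 peaks in the synapse L lists of days 1, 6 and 20 and 0, 0 and 1 in the synapse C lists. The peak of the day 20 C list, and 1 of the day 6 L list, lay outside Cacna1d, in Dcp1a, which encodes a decapping factor. By place, Cacna1d was the only member with a peak in all 3 synapse L lists and no synapse C list (1 of 26, against 0.564% of all genes and 0.798% in the reverse direction). Each L list had a peak in the region chr14:30350615-30351059, with folds of 5.84, 5.96 and 3.34, and the day 1 L list had a second peak in the gene, at chr14:30352821-30353092 with a fold of 2.03. The same region held a peak in all 3 homogenate L and all 3 homogenate C lists, where its fold was between 2.23 and 4.47, and in 1 control list. So the difference between L and C at this place was seen in the synapse lists and not in the homogenate lists, and whether it differs between the fractions was not tested.

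Of 37 genes whose products bind, anchor or regulate these channels, 34 had a peak in the lists. In the cKO set, 9 of the 25 found there were in both control lists alone (36%), a share close to the 33.8% of all genes, and 0 had the opposite pattern (against 1.00%). The 9 include the ankyrins Ank3 and Ank2, adaptor proteins of which Ank3 clusters sodium channels, the spectrin Sptbn1, the channel-binding Fgf13 and Fgf14, and Rims2, which ties calcium channels to the active zone. In the homogenate 0 had a pattern of L against C, and in the synapse Fgf11 was in all 3 C lists and no L list, as were 0.826% of all genes. Sptbn4, the spectrin of axon initial segments, and Rem2, a small GTPase that restrains calcium channels, had a peak in 0 synapse and 6 homogenate lists (Fisher's exact test, adjusted p = 0.0151 each), or 2 of 34 genes, against 14.3% of all genes. Of the 3 stargazin-type genes left out, Cacng2 had a peak in 6 synapse and 5 homogenate lists and Cacng3 in 4 and 6. Cacng8 had one in 0 and 6 (exact test, adjusted p = 0.0151), and in each of the 6 homogenate lists 1 peak named Cacng8 lay in the last part of Cacng7.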

How the data were processed

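Peaks were called separately for the 16 captured libraries, since the deposited lists hold 1 library each. The submitters' processing notes name the mm10 assembly and, among the tools, HISAT2 2.0.4, cutadapt 1.9.3 and FastQC. Which peak caller made the lists is not given in the sources used here. The deposited columns are, per the file headers, the fold (an enrichment ratio), the -log10 of a p-value and of a q-value, a score and a gene name. No list holds a fold of 2 or less. The files give no counts, so depth per sample and its precision are unknown.

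Names were updated to the RefSeq table of GRCm38.p6 through unique synonyms (214 of 13302 names, with 151 kept unmatched), which left 13143 genes. Presence of a peak was compared between lists. Synapse and homogenate were compared with Fisher's exact test per gene, with Benjamini-Hochberg adjustment over 13115 genes and a threshold of 0.05, tested on simulated lists. The other comparisons are counts of genes found throughout 1 group and nowhere in the other. Alternatives were a fold of at least 5, a -log10 p of at least 10, peaks inside the named gene, the range every list reaches, equal numbers of top-ranked peaks, peaks of at least 500 bp, peaks per 1000, other units of comparison and leaving out lists. Counting by place under any name and the first cKO pair alone were added after the data were seen. Counts cover all members, but results of some single genes are not reported here. The members, gene lists and tests were chosen with earlier results of these data known. Genes called in a comparison, found in at least 12 lists, or with the most recurrent region of their family were to be given in full. The deviations from the group mean of homogenate lists that share a number correlated at 0.314, 0.221 and 0.116, over 12908 genes, so the numbers were taken to pair them, although the labels give only numbers. The first homogenate L list has peak names numbered 2 and was kept under its own label. Python 3.11.15, pandas 2.3.3, SciPy 1.17.1 and Matplotlib 3.10.9 were used.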

Additional observations from a re-analysis of the deposited data

How the results depend on the processing

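With only peaks of at least 5-fold, 0 members had the pattern of both cKO and no control list and 3 the reverse. With a -log10 p of at least 10 the first was 0. With equal numbers of top-ranked peaks (422 a list) both were 0, and with peaks of at least 500 bp both were 0. The first cKO pair alone gave 2 for the first. Leaving out 1 list gave 1 to 2 members for the first, 2 without the second cKO list, and 10 to 15 for the reverse, 15 without the first cKO list. The deviations of cKO and control lists that share a number correlated at 0.0384. With 2 lists a group, this value cannot decide whether the numbers pair the lists. A replicate block gave 1 and 10 members, but it sets the same condition as the main count and so could give nothing else. For the homogenate, leaving out 1 list gave 0 in both directions. The replicate block also gave 0, again by the same condition as the main count.

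In the synapse over all 3 days, Cacna1d made the count of L alone 1 with peaks inside the named gene and also 1 by place under any name. On day 1, L alone was 5 at 5-fold and C alone 6 at a -log10 p of 10. On day 6, C alone was 2 at 5-fold and 1 in the range every list reaches. On day 20, C alone was 7 at 5-fold and L alone 5 at a -log10 p of 10.

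For synapse against homogenate, members with fewer synapse lists numbered 2 with peaks inside the named gene, 2 in the common range, 2 by place, and 0 with day 6 alone, with C and L as 1 unit and with equal numbers of top-ranked peaks (5586 a list). The common range tests fewer members, and the units allow no smaller p than 0.1. The cause of the other shifts was not tested. Leaving out 1 list gave 4 to 5 members, 5 without synapse L day 20 (Scn4b), synapse C day 6 (Scn2b) or homogenate L replicate 2 (Hcn3), and 0 in the other direction. By peaks per 1000, members with more in the synapse numbered 4 and those with more in the homogenate also 4. Hcn4 lost its call in the exact test at 5-fold (adjusted p = 1), at a -log10 p of 10 (0.0695) and inside the named gene (0.792).

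The mean number of members per list changed as peaks were removed. At 5-fold it was 12 in synapse L, 12 in synapse C, 19 in homogenate L, 20.3 in homogenate C and 8 in the control. In the common range it was 16, 15, 20, 21 and 15.5 in that order. Inside the named gene it was 23.3 in homogenate L, 24.7 in homogenate C and 16 in the control, and by place 16 in the control. In the cKO it was 4 as reported, 3 at 5-fold and 0.5 at a -log10 p of 10. At a -log10 p of 10 it was 15.7 in synapse L and 14.5 in the control. Regions in at least 10 lists numbered 6, against 14, when 50% of both peaks had to overlap.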
